A study of Mus musculus with 4 samples.

Results

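The 9 genes described here encode enzymes that move methyl groups between choline, betaine, folate and methionine in mouse embryonic stem cells. They were taken by symbol from the deposited table of 46603 gene IDs, each symbol matched 1 gene ID, and all 9 had a count. They were selected on their mean normalized counts in the study's groups, with the comparison already known, so their group values are a description and not a test. Bhmt, Bhmt2, Dmgdh, Sardh and Chdh belong to the use of choline and betaine or to a related methyl donor, and Mtr, Mat2a, Ahcy and Gnmt to the methionine cycle.

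The study sequenced polyadenylated RNA of 4 samples, 2 labelled wild type and 2 labelled Gsk3a-/-;Gsk3b-/-, a loss of both genes of glycogen synthase kinase 3. Per the labels' protocols all samples grew in serum with LIF on irradiated embryonic fibroblasts, so the RNA can hold feeder transcripts. The labels give embryonic day 16 and the design text gives 15. The alleles, the parent line and the number of clones behind each genotype were not stated in the labels, and neither were separate cultures, so the spread between libraries may be technical. The deposited file compares a group A with a group B and does not name their genotypes. Every difference below is therefore B relative to A. The libraries read back from the group means bear the names A1, A2, B1 and B2, and values are always given in that order.

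In the choline route, choline is oxidised to betaine, betaine gives a methyl group to homocysteine, and the dimethylglycine that remains is demethylated to sarcosine and then to glycine. In the methionine cycle, methionine is activated to S-adenosylmethionine, the methyl donor of most methyltransferases, and the product S-adenosylhomocysteine is cleaved to homocysteine. Homocysteine is methylated again either from folate or from betaine. Betaine use is best known from liver and kidney.

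Bhmt, Bhmt2 and Dmgdh lie side by side on chromosome 13, and the stretches before their start sites are shown because these 3 genes carry the difference between the groups. Bhmt occupies bases 93616675 to 93637961 on the minus strand (ENSMUSG00000074768), Bhmt2 bases 93655720 to 93674302 on the minus strand (ENSMUSG00000042118) and Dmgdh bases 93674433 to 93752833 on the plus strand (ENSMUSG00000042102), in GENCODE M21 on mm10. Bhmt2 and Dmgdh point away from each other with 130 bases between them, and 17.8 kb separate Bhmt from Bhmt2. The sequences are RefSeq's on GRCm38.p6, written 5′ to 3′ with each CG pair in capitals. The first holds the 250 bases before the RefSeq start of Bhmt (chr13:93637759-93638008, minus strand). The GENCODE gene reaches to base 93637961, so most of this stretch lies inside Bhmt as GENCODE places it. The second holds the 133 bases between the RefSeq starts of Bhmt2 and Dmgdh (chr13:93674303-93674435, plus strand).
Bhmt upstream: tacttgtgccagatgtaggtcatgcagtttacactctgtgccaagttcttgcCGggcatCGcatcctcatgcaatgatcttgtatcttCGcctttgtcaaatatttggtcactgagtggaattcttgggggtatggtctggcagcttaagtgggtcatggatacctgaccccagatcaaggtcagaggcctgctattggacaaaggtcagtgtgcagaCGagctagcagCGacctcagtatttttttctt
Bhmt2-Dmgdh shared: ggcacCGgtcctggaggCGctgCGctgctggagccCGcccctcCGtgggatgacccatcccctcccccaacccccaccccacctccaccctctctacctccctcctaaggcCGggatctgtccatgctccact
The Bhmt stretch holds 5 CG pairs with 48.0% G or C, and the shorter stretch shared by Bhmt2 and Dmgdh holds 6 with 69.9% G or C. In windows of 300 bases (250 before and 50 after a start), Bhmt had 8 CG pairs, Bhmt2 26 and Dmgdh 25, against a median of 7 over 32851 RefSeq promoters. The windows of Bhmt2 and Dmgdh overlap and are not separate observations. The TCF/LEF letters CTTTGAT and the E-box CACGTG, which do not overlap each other, were searched on both strands. Neither was found in the 11 windows of the 9 genes, and 3.73% and 7.15% of all promoters held them. At such shares 11 windows can easily hold none, so nothing is read from the absence.

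Group B had 4.54 to 5.41 times as much RNA of the 3 chromosome 13 neighbours as group A, and the other 6 enzymes were not called. At an adjusted p of at most 0.05 in the authors' deposited table, the 9 enzymes held 3 higher and 0 lower genes, beside 1.54% higher, 1.92% lower and 3.46% either way of 30237 tested genes. At 0.1 the enzymes gave the same counts, beside 2.03%, 2.48% and 4.52%. No enzyme was lower at an unadjusted p below 0.05 or in limma either. The B libraries were above the A libraries in 5 of the 8 enzymes past a mean of 10 and below them in 0, beside 26.4% and 26.0% of such genes. The choice of genes used this contrast, so nothing is read from that count. Of the 9, 8 had a mean of at least 10 normalized counts, and Chdh did not. Normalized counts are reads divided by a size factor that evens out sequencing depth.

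**Figure D1:**
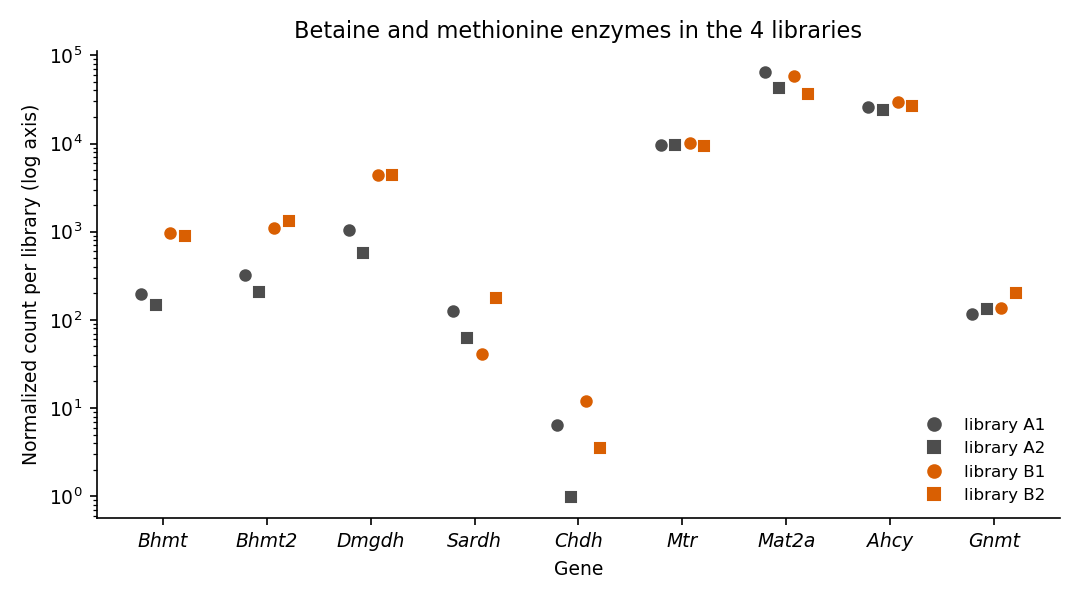
Normalized counts (log axis) of the 9 enzymes, with 1 point per library, grey for group A and orange for group B, circles for A1 and B1 and squares for A2 and B2. The B libraries of Bhmt, Bhmt2 and Dmgdh stand clear above the A libraries, while the groups of Mtr, Mat2a and Sardh overlap.

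Bhmt encodes betaine-homocysteine methyltransferase, which makes methionine from homocysteine with betaine as donor. The A libraries held 196 and 147 normalized counts and the B libraries 958 and 899.7. The groups did not overlap, and the lower B library was 4.59 times the higher A library. The group means were 172 ± 34.6 and 929 ± 41.2 (SD, n = 2 each), a fold of 5.41 and a log2 ratio of 2.43 with an adjusted p of 1.70e-19 in the authors' deposited table.

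Bhmt2 encodes a related methyltransferase that takes its methyl group from S-methylmethionine. It stood at 325 and 209 normalized counts in the A libraries and at 1114 and 1310.0 in the B libraries. The groups were again apart, and B2 was the highest of the 4. The means were 267 ± 82.4 and 1212 ± 139 (SD, n = 2 each), which is 4.54-fold, or 2.18 on the log2 scale, with an adjusted p of 5.64e-17 from the authors' deposited table.

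Dmgdh encodes the mitochondrial dimethylglycine dehydrogenase, which acts on the product of the betaine reaction. Normalized counts of 1050.2 and 572 in the A libraries stood against 4417 and 4343 in the B libraries. The B libraries were within 1.02-fold of each other, and the A libraries were 1.83-fold apart, with A1 the higher. The means of 811 ± 338 and 4379.8 ± 52.7 (SD, n = 2 each) differ 5.4-fold (2.43 on the log2 scale, with an adjusted p of 2.10e-29 in the authors' deposited table). Per kilobase of exon, Dmgdh was 2.33, 1.98, 2.87 and 2.4 times Bhmt2 in A1, A2, B1 and B2. It was 9.03, 6.55, 7.78 and 8.14 times Bhmt, which is not its divergent neighbour. The genes were chosen with this contrast known, so nothing is read from the steadiness of these ratios.

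A limma fit to log2(normalized count + 1) of the recovered counts gave log2 fold changes of 2.44 for Bhmt (SE 0.22), 2.21 for Bhmt2 (SE 0.26) and 2.50 for Dmgdh (SE 0.29), with adjusted p values of 0.0255, 0.0312 and 0.0309. That fit called 2.01% of 20465 genes. With 1 A library left out the fit takes its spread between libraries from B1 and B2, and the lone A library is assumed to vary like them. Without A1 the adjusted p values rose to 0.139, 0.139 and 0.0924, and without A2 to 0.308, 0.308 and 0.296, so none of the 3 passed, and neither did any of the 20465 genes (0%). Without B1 or B2, where the spread comes from A1 and A2, all 3 passed, as did 4.87% and 5.43% of all genes. The 3 also passed with pseudocounts of 0.5 and 8, without a filter, with a mean of at least 50, and when scaled by total count or upper quartile, where 1.94%, 2.45%, 1.36%, 2.65%, 2.19% and 2.78% of genes passed. Their log2 fold changes ranged from 1.89 to 2.93 over all 11 limma settings.

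The reads of Bhmt cannot be separated from those of its copies by these values. Of the 50-base windows of the coding Bhmt transcript, 56.9% occur letter for letter in Gm5096 on chromosome 18 and 31.8% in the processed pseudogene Bhmt-ps1 on chromosome 4 (bases 26368984 to 26370207). Gm5096 had 144, 111, 801 and 729 normalized counts in A1, A2, B1 and B2, and Bhmt-ps1 had 37.8, 42.5, 293 and 210.4. Both were higher in group B, by 2.59 and 2.65 on the log2 scale, and the authors' deposited table gives adjusted p values of 9.04e-20 and 5.32e-07. The treatment of reads that match several places is not known, so the level of Bhmt is uncertain. Bhmt2 shares only 0.41% of the windows of Bhmt, and their transcripts aligned over 1087 bases with 75.6% identity. Bhmt2 shares 6.29% of its windows with other genes, and Dmgdh shares 5.74%, all with the antisense gene AW495222.

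Antisense reads were few. AW495222, on the opposite strand within Dmgdh, stood at 14.7, 0, 18.3 and 46.1 normalized counts. Gm15622, opposite Bhmt and with 3.81% of its windows, had no read in the A libraries and 2 and 1 reads in the B libraries. These are small beside the counts of Dmgdh and Bhmt. The libraries were stranded per the labels' protocols, but whether counting used the strand is unknown.

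**Figure D2:**
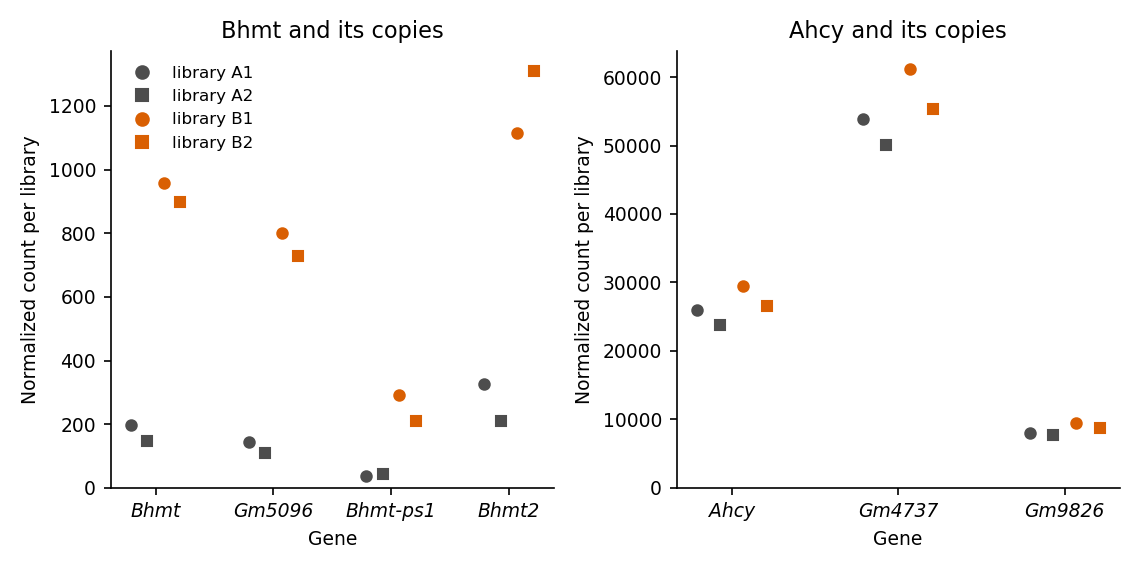
Normalized counts per library of Bhmt beside Gm5096, Bhmt-ps1 and Bhmt2 (left) and of Ahcy beside Gm4737 and Gm9826 (right), both axes from 0, with the colours and symbols of the 4 libraries in the key. The copies of Bhmt are higher in both B libraries like Bhmt itself, and Gm4737 lies above Ahcy in every library.

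Around the block, 7 other coding genes within 500 kb had a mean of at least 10. Of them, 1 was called in the authors' deposited table, beside 3.46% of 30237 tested genes. Lhfpl2, a tetraspan membrane protein gene that begins 305.0 kb beyond the end of Dmgdh, had 1293, 1040.2, 4254 and 4406 normalized counts. Its B libraries were above its A libraries, as for 26.4% of 20465 genes past the minimum of 10 counts. The log2 ratio was 1.89 with an adjusted p of 1.82e-18 in the authors' deposited table. In limma its log2 fold change was 1.90, and 2.06 without A1 and 1.74 without A2, where it was not called (adjusted p 0.139 and 0.308). Arsb, the lysosomal arylsulfatase B gene that lies between Dmgdh and Lhfpl2, had 102, 71.2, 129 and 209. It did not pass (0.96, adjusted p 0.556, authors' deposited table).

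On the other side of the block Jmy, 116.9 kb before Bhmt, had a log2 fold change of 0.26 and Homer1 of 0.49, with adjusted p values of 1 and 0.16 in the authors' deposited table. Homer1, a scaffold protein of synapses, had 2203 and 2922 normalized counts in the A libraries and 3576 and 3626 in the B libraries. Its groups did not overlap, with B above A as for 26.4% of genes past the minimum of 10 counts. Papd4, Cmya5 and Scamp1 had log2 fold changes of 0.07, 0.34 and -0.12, each with an adjusted p of 1 in the authors' deposited table.

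**Figure D3:**
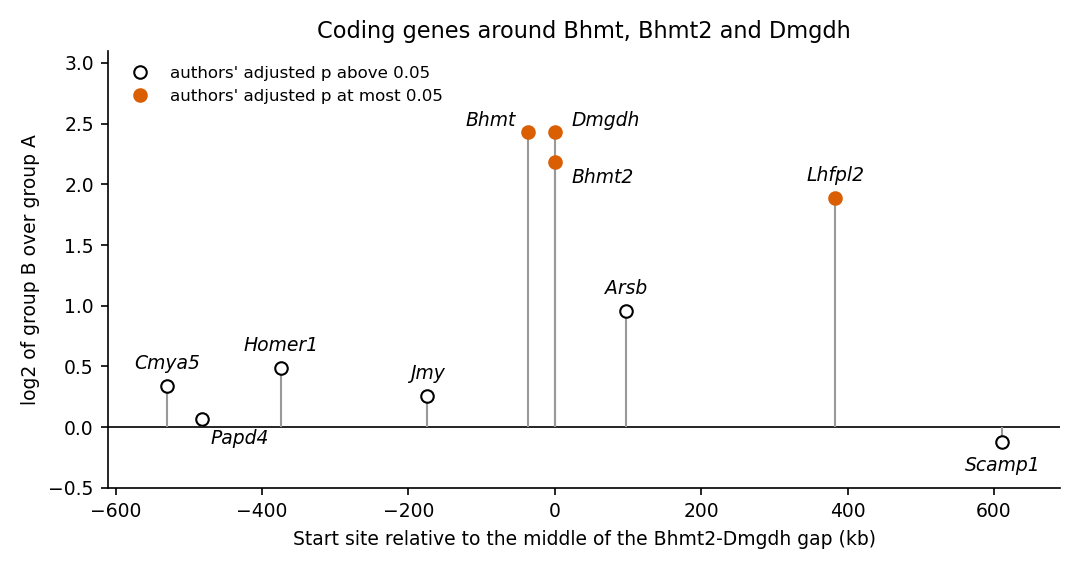
Log2 of the group B over the group A mean (vertical) for the coding genes with a mean of at least 10 within 500 kb of the block, placed by the distance of each start site from the middle of the Bhmt2-Dmgdh gap in kb. Bhmt, Bhmt2, Dmgdh and Lhfpl2 (filled, authors' adjusted p at most 0.05) stand between 1.89 and 2.43, and the 6 open points lie between -0.12 and 0.96.

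Among 16552 other genes that averaged 50 counts or more, the profile over the 4 libraries nearest to that of Bhmt (Euclidean distance of centred log2 values) was that of its copy Gm5096, at 0.153. Next came Fabp3-ps1 at 0.158 and Fabp3, a fatty acid binding protein gene, at 0.197. Fabp3 had 3487, 2457, 14804 and 13324 normalized counts in A1, A2, B1 and B2, so its B libraries were also close to each other and A1 was above A2. Dmgdh had rank 7 at 0.335, Bhmt2 rank 11 at 0.364, Bhmt-ps1 rank 23 at 0.517 and Lhfpl2 rank 32 at 0.556. Bhmt, Bhmt2 and Dmgdh were chosen with the contrast known, so nothing is read from the ranks of Dmgdh and Bhmt2. With 4 libraries such a distance only orders the genes.

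Sardh and Chdh, the remaining genes of the choline route, had low counts and overlapping groups. Sardh (ENSMUSG00000009614, chromosome 2, 27188393 to 27248337), which turns sarcosine into glycine, had 126 and 62.3 normalized counts in the A libraries and 41.3 and 176 in the B libraries. The B libraries were the lowest and the highest of the 4. The means were 94.2 ± 45.2 and 109 ± 95.4 (SD, n = 2 each), and the log2 fold change was 0.21 in the authors' deposited table but -0.05 (SE 0.73) in limma, so no direction can be given. Sardhos on the opposite strand holds 3.11% of its windows and Gm49011 holds 2.73%. The fibroblast collagen gene Col1a1 stood in the same order, at 31482, 17177, 8757 and 55013. Per 1000 normalized counts of Col1a1, Sardh had 4.01, 3.63, 4.71 and 3.2. The 15 feeder fibroblast markers summed to 278810.2, 195224, 131243 and 422618 in A1, A2, B1 and B2, and none of them was at 0. Col3a1, Lum and Dcn were highest in A1, and the other feeder markers were highest in B2. The part of feeder RNA in the Sardh values was not tested.

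Chdh (ENSMUSG00000015970, chromosome 14, 30009023 to 30040527), the dehydrogenase that starts the oxidation of choline, had 7 and 1 reads in the A libraries and 13 and 3 in the B libraries. The groups overlapped, and at this depth no difference was detectable. The gene also overlaps Cacna1d on the opposite strand, which shares 9.57% of the windows of its transcript and had 60.8, 61.3, 215 and 75.7 normalized counts.

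The core enzymes of the methionine cycle were abundant and not called. Mtr (ENSMUSG00000021311, chromosome 13, 12182712 to 12258113), methionine synthase, which uses methyl folate and lies far from the Bhmt block, had 9610.0, 9564, 10216 and 9349.5 normalized counts in A1, A2, B1 and B2. The groups overlapped and their means of 9587 ± 32.3 and 9783 ± 612 (SD, n = 2 each) differ 1.02-fold (log2 ratio 0.03, and adjusted p 1 in the authors' deposited table). Per kilobase of exon, Dmgdh stood at 0.273 and 0.149 of Mtr in A1 and A2 and at 1.08 and 1.16 in B1 and B2. Bhmt, the alternative route of homocysteine methylation, stood at 0.0302 and 0.0228 of Mtr in group A and at 0.139 and 0.142 in group B. With coding transcripts as lengths, which leave out the retained intron of Bhmt, these ratios were 0.068, 0.0513, 0.312 and 0.321. They compare transcripts and not enzyme activity, and the level of Bhmt is uncertain because of its copies.

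Mat2a (ENSMUSG00000053907, chromosome 6, 72432799 to 72439558), which makes S-adenosylmethionine outside liver, had 64758 and 42141 normalized counts in the A libraries and 57658 and 36685 in the B libraries. The 2 libraries of each group differed more than the groups did, 1.54-fold within A and 1.57-fold within B. The log2 ratio was -0.18, with p = 1 after adjustment in the authors' deposited table, and it ranged from -0.51 to 0.14 over the limma settings. The antisense gene Particl holds 4.85% of its windows. The processed pseudogene Gm9523, with 6.53%, had the same order of libraries at 1389, 919, 1105 and 763. Mat1a, the liver form, named after its values were seen, had no read in the A libraries and 4 and 7 in the B libraries (adjusted p 0.743, authors' deposited table).

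Ahcy (ENSMUSG00000027597, chromosome 2, 155059310 to 155074497), which cleaves S-adenosylhomocysteine, had 25982, 23711, 29491 and 26625 normalized counts. The B libraries stood above the A libraries, as for 26.4% of 20465 genes past the minimum of 10 counts, and the lower B library was 1.02 times the higher A library. The means of 24846 ± 1610 and 28058 ± 2030 (SD, n = 2 each) gave a log2 ratio of 0.18, not called in the authors' deposited table (adjusted p 1). The level of Ahcy is uncertain, since 77.0% of the windows of its transcript occur in other genes. Gm4737, with 74.1% of them, was listed at 53911, 50056, 61169 and 55288, which is 2.08 times Ahcy in the mean, and Gm9826 at 8058, 7730.2, 9488 and 8807.

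Gnmt (ENSMUSG00000002769, chromosome 17, 46725664 to 46729168), glycine N-methyltransferase, which uses up S-adenosylmethionine to make sarcosine, had 117, 132, 136 and 203 normalized counts. The groups touched without overlapping, since the lower B library was 1.03 times the higher A library. The log2 ratio was 0.45, with p = 0.974 after adjustment in the authors' deposited table. It shared no window with another gene.

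Per kilobase of exon, which allows genes to be compared, the level in group A fell from Mat2a (11915 ± 3565, SD, n = 2) through Ahcy (8858 ± 573), Mtr (1125 ± 3.79), Dmgdh (238 ± 98.9), Bhmt2 (108 ± 33.4), Gnmt (103 ± 8.51), Bhmt (29.8 ± 6.0) and Sardh (17.4 ± 8.32) to Chdh (0.598 ± 0.621). Bhmt2 and Gnmt were the only neighbours in this order whose libraries overlapped. In group B the order was Mat2a (10515 ± 3306), Ahcy (10003 ± 722), Dmgdh (1283 ± 15.4), Mtr (1148 ± 71.9), Bhmt2 (491 ± 56.2), Bhmt (161 ± 7.16), Gnmt (141 ± 39.7), Sardh (20.0 ± 17.6) and Chdh (1.24 ± 0.952), and the libraries of Mat2a and Ahcy and of Bhmt and Gnmt overlapped. Dmgdh was thus below Mtr in group A and above it in group B. The exon length of Bhmt includes a transcript with a retained intron. Over its coding transcript of 2490 bases Bhmt stood at 69.0 in A and 373 in B, and this choice of length left its place in both orders unchanged. The places of Ahcy and Bhmt remain uncertain, since 77.0% and 61.5% of the windows of their transcripts occur in other genes. Reads of their copies were not added to these levels.

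The rest of the pathway was read from a list of 67 other genes of choline, methionine, folate, glycine and serine use, of which 66 were tested and Sms had no count. Of the 66, 1 was higher and 2 were lower in the authors' deposited table, beside 1.54% and 1.92% of all genes. The 63 that averaged 10 counts or more had a median log2 fold change of -0.07, against 0.01 over all such genes, and 51 of them lay within 0.5 of 0. The B libraries were above the A libraries in 16 and below in 21, against 26.4% and 26.0% of all genes.

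The gene that was higher was Aldh1l1, which oxidises formyl folate in the cytosol. It had 1255, 1220.1, 2269 and 2454 normalized counts, with no overlap of the groups (log2 ratio 0.93, and adjusted p 0.000282 in the authors' deposited table). Chka, choline kinase alpha, which commits choline to phosphatidylcholine, had 9569.5, 9594, 5961 and 5784. It was lower in both B libraries (-0.71, adjusted p 0.00654, authors' deposited table). Cth, which makes cysteine at the end of transsulfuration, had 14529, 13307, 8884 and 7938 and was lower as well (-0.73, adjusted p 0.00459, authors' deposited table). In limma none of the 3 was called without A1 or without A2, where the adjusted p values ran from 0.236 to 0.341. Their log2 fold changes there were 0.95 and 0.91 for Aldh1l1, -0.71 and -0.70 for Chka, and -0.66 and -0.79 for Cth.

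The most abundant list genes were not called. Among choline genes the transporter Slc44a1 had means of 13676 and 20211 in A and B (0.56, adjusted p 0.0597) and Aldh7a1, which makes betaine from its aldehyde, 15932 and 13198 (-0.27, adjusted p 0.752), both from the authors' deposited table. The methionine transporter subunits Slc3a2 and Slc7a5 had log2 fold changes of -0.04 and -0.25, and Odc1 and Srm of polyamine synthesis -0.14 and -0.34. In the folate cycle Mthfd1 had 0.00 and the purine enzyme Gart -0.24. Folate carriers gave 0.05 for Folr1 and -0.14 for Slc19a1, and the glycine cleavage genes 0.41 for Gldc and -0.04 for Gcsh. In the same table the adjusted p values of these 10 were 0.859 for Srm, 0.914 for Slc7a5 and Gart, and 1 for the others. In limma the log2 fold changes of Slc44a1, Srm and Gldc depended on which B library was kept. Without B1 they were 0.65, -0.62 and 0.68, and without B2 they were 0.48, -0.11 and 0.09.

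**Figure D4:**
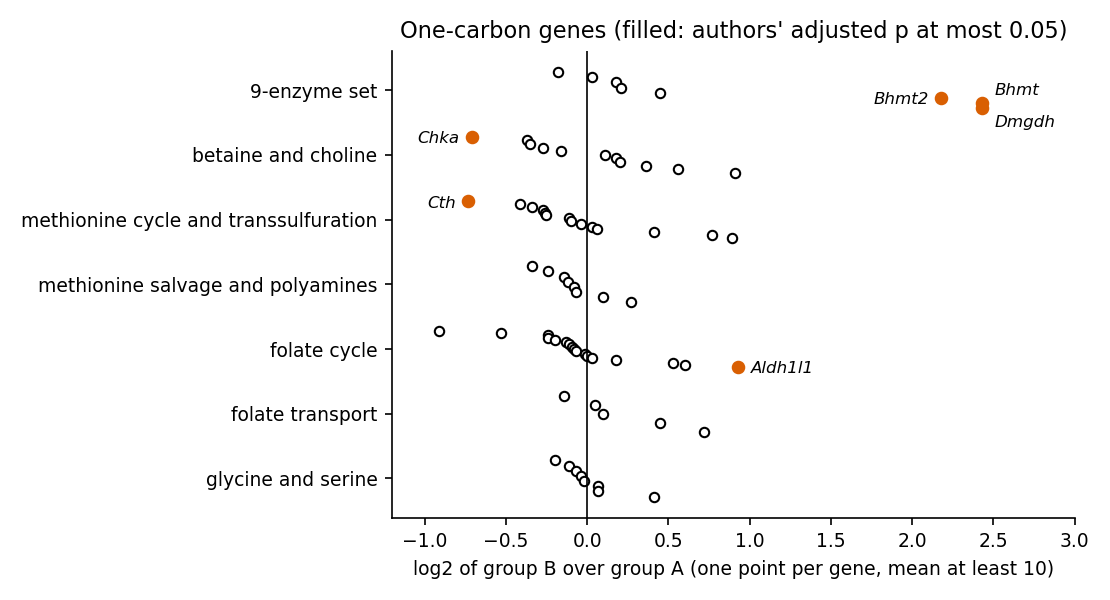
Log2 of group B over group A (horizontal) for the 9-enzyme set and the other list genes by role, 1 point per gene with a mean of at least 10, filled where the authors' adjusted p is at most 0.05. Apart from Bhmt, Bhmt2 and Dmgdh, the points lie between -0.91 and 0.93, with Chka, Cth and Aldh1l1 filled.

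Library totals recovered from the table were 112655210 to 146326307 counts, with 26436 to 26994 genes counted in each. Of the targeted genes, Gsk3a had 6353, 7104, 1697 and 1347 normalized counts and was called lower in group B (log2 ratio -2.14, with an adjusted p of 4.90e-24 in the authors' deposited table and 0.0255 in limma). Gsk3b had 5438, 6285, 5051 and 5002 and was not called (-0.22, adjusted p 0.984, authors' deposited table). Neither group was thus without Gsk3a or Gsk3b RNA at the level of whole-gene counts. Which stretches the alleles remove is not stated, and feeder cells may add reads. These counts therefore cannot test the label, and no genotype was assigned from them. The 10 stem cell markers summed to 873785, 942248, 812803 and 826285, lower in each B library. Of them, 6 were below the A libraries in both B libraries and 0 above, beside 26.0% and 26.4% of all genes. The authors' deposited table called Utf1 alone, with 42044, 52142, 23994 and 23047 normalized counts (0.499 times the A mean, adjusted p 0.000237), and so did limma (adjusted p 0.0312), while 3 were lower at an unadjusted p below 0.05. In such bulk samples fewer cells of a type and less RNA per cell cannot be told apart. The 20 markers of visceral and primitive endoderm, a cell type that arises in such cultures, summed to 117083, 86285, 349106 and 187591. Most of each sum came from Lama1, Col4a1 and Sparc. Of the 18 that averaged 10 counts or more, 10 were higher in each B library than in either A library. Another 2, Apob and Ttr, were lower in each, beside 26.4% and 26.0% of all genes. The authors' deposited table called 0 of the 20 by its adjusted p. Of the 20, its unadjusted p was below 0.05 for 8 higher and 2 lower markers. The share of all genes at that unadjusted p was not computed, here or for the stem cell markers. Limma called 4 higher (Gata6, Sox17, Pdgfra and Lama1), beside 2.01% of all genes called either way. Gata4 had 1197, 742, 11236 and 4145 normalized counts and Sox17 271, 140.4, 3231 and 1427, each higher in B1 than in B2. Of the 10 markers higher in each B library, Rbp4 alone was higher in B2 (309.8) than in B1 (275). In the same list Afp had 7.37, 0, 8.25 and 0, and Ttr 26.7, 12.9, 3.67 and 3.55.

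The part of endoderm in the values of the 3 chromosome 13 genes was not tested. Of 12 hepatocyte markers Otc and Fgb had no count, 6 had a mean below 10 and Alb had 2.76, 2.97, 0 and 2.36. The sums were 14428, 13679.6, 15109 and 20795, most of it Ass1. Ahsg, the fetuin-A gene, was called higher in the authors' deposited table, with 263, 197, 708 and 521 normalized counts (adjusted p 0.00232), but not in limma (adjusted p 0.0602), and no other hepatocyte marker was called by either. The 10 macrophage markers, all counted, summed to 3341, 2966, 3495 and 3898. Of the 9 past the minimum, 7 were higher in each B library than in either A library, and 2, Cd68 (2748, 2458, 2128 and 1960.2) and Itgam (147, 153, 95.3 and 100.5), were lower in each, beside 26.4% and 26.0% of all genes. The authors' deposited table called 2 of the 10 higher, beside 1.54% of all genes, namely Ptprc (1.84, 11.9, 45.8 and 35.5, adjusted p 0.0471) and Lyz2 (289, 234, 951 and 1338, adjusted p 8.80e-05). In limma Lyz2 was called (adjusted p 0.0309) and Ptprc was not (0.129). The part of hepatocyte or macrophage RNA in the values of the enzymes was not tested.

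**Figure D5:**
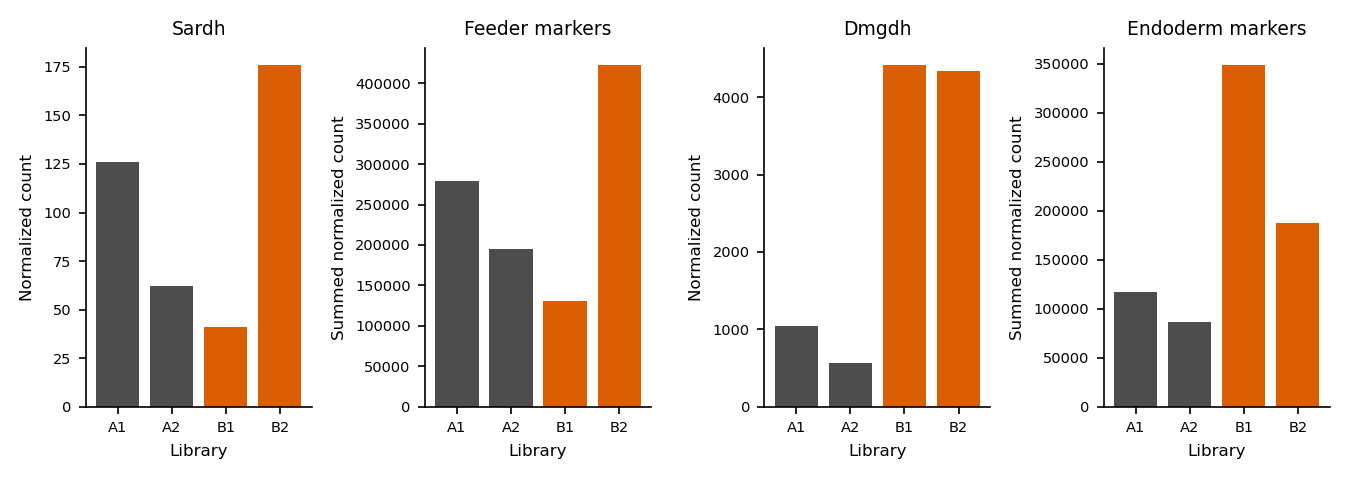
Bars from 0 with 1 bar per library (grey for group A, orange for group B), giving normalized counts of Sardh and Dmgdh and summed normalized counts of 15 feeder fibroblast and 20 endoderm markers. Sardh and the feeder sum are highest in B2 and lowest in B1. Dmgdh is level in B1 and B2. The endoderm sum, most of it Lama1, Col4a1 and Sparc, is higher in B1 than in B2.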

How the data were processed

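Polyadenylated RNA of 4 samples was sequenced from stranded TruSeq libraries, per the labels' protocols. The submitters' processing notes list STAR, DESeq and mm10 and give no versions. No source used here names the read counter, its strand setting or the annotation. The deposited table gives, per gene and group, a mean of counts over size factors, kept here as a score because its groups are not named, the fold (ratio) of B over A as the authors computed it, its log2 as deposited by the authors, and the authors' p-value and adjusted p-value. Of 46608 rows, 5 repeated gene IDs were used once.

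Each group mean is a sum over its 2 libraries of whole reads times a weight fixed per library. Whole counts came back within 1e-06 for all 28616 genes with a mean in A and 28353 in B; a second pair also fell within it for 1700 and 11 genes, and the closest was taken. The numbers of A1 to B2 are not the labels' replicate numbers. The authors' test is the main result. Alternatives fitted log2(normalized count + 1) in limma 3.58.1 (R 4.3.3), with variances following a trend on abundance, two-sided and Benjamini-Hochberg adjusted, for genes averaging 10 counts or more; the procedure was tested on simulated data. Fold changes on that scale understate those of low genes. Count tests were not run.

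Genes and lists were chosen with earlier results of these data known. Named genes are the 9 enzymes, the called and the 2 most abundant list genes per role, coding genes within 500 kb of the block, the 3 profiles nearest to Bhmt, and Gsk3a and Gsk3b; copies, antisense genes, Col1a1, Mat1a and named markers were added after their values were seen. Positions and exon lengths came from GENCODE M21, which matched 46091 IDs, and promoters from RefSeq, which held 11 windows for the 9 enzymes. Shared sequence was counted over all 50-base windows of the longest coding transcript.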

Additional observations from a re-analysis of the deposited data

How the results depend on the processing

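The counts were recomputed with an adjusted p of 0.1 in the authors' deposited table and in 11 limma fits (pseudocounts of 0.5 and 8, no filter, a mean of at least 50, scaling by total count or upper quartile, and each library left out). The 9 enzymes had 3 higher and 0 lower in every one that kept all 4 libraries, and with 1 library left out the higher ones ranged from 0 (without A1 and without A2) to 3. The log2 fold changes ranged from 2.24 to 2.65 for Bhmt, 1.89 to 2.53 for Bhmt2 and 2.06 to 2.93 for Dmgdh. Among list genes the higher ones numbered 2 at an adjusted p of 0.1 and 0 to 3 with 1 library left out, and the lower ones 0 to 3 with 1 library left out; over all genes limma called 2.01% with every library and 0 without A1 or A2. Sardh was below 0 in 9 of 11 fits, from -1.09 to 0.98. Chdh could be fitted only without a filter (0.99, adjusted p = 0.654). With the longest transcript as length, 7 of 9 enzymes kept their place in both orders, and no motif appeared in the bases before the start. No paired analysis was possible because the recovered libraries carry no replicate numbers of the labels. Depth limits Chdh, and for the others the spread of 2 libraries limits the precision.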
